A study of Mus musculus with 4 samples.

Results

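The CpG-rich coding promoters without any peak are 649 genes whose 5′ ends lie in CpG-dense sequence and show no called accessible site in naive CD8 T cells. They were selected on the deposited peak lists and on the reference sequence: protein-coding genes of GENCODE mouse release 21 on chromosomes 1 to 19 with at least 60 CpG dinucleotides within 500 bp of the gene 5′ end, and with no peak within 1 kb of any annotated start in the longer peak list of any library. Hox and Pcdh genes were left out (20 CpG-rich genes, of which 12 had no peak). The 649 members were 9.01% of the 7206 CpG-rich coding genes that remained, out of 20807 coding genes on these chromosomes. Accessibility was measured by DNase-seq, in which DNase I cuts open chromatin and the cut ends are sequenced, in primary T cells of the mouse that the labels call CD8-positive, naive, resting and alpha-beta. The cells came from female, virgin mice of the hybrid B6CASTF1/J, in which a laboratory strain is crossed with a wild-derived inbred one, aged 2 months. All 4 libraries, labelled biological replicates 1 to 4, belong to this single group. They are separate biosamples that share 1 donor identifier, so a p-value over libraries measures only the spread between these libraries.

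CpG islands are stretches of sequence in which CpG dinucleotides have escaped the loss that methylated cytosines undergo over evolution, and most genes that are active in every tissue start in them. CpG islands also mark the starts of many genes that direct embryonic development or work in neurons, and in cells that do not use those genes the islands are typically held by Polycomb complexes, which mark nucleosomes and limit transcription, or in some genes by DNA methylation. Neither Polycomb marks nor DNA methylation were measured in these libraries. A missing DNase peak at an island promoter does not show which of these, if any, is present, and it does not measure transcription.

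The sequences below show what these promoters look like on paper: the 250 bases before the gene 5′ end on the gene's strand (GRCm38), with every CpG dinucleotide in capitals. Irx2, a homeobox factor of the Iroquois family, Tcf15, a basic helix-loop-helix factor of the early mesoderm, Nrg3, a neuregulin growth factor of neurons, Adamts2, a protease that trims procollagen, and Slc6a17, a transporter of synaptic vesicles, each stand for 1 of the 5 gene classes with the most members. Cdh22, a brain cadherin, and Peg12, an imprinted gene expressed from the paternal copy, are shown because they had the highest cut-rate cover of all members. Pou2f2, the octamer-binding factor Oct2, is the contrast: a homeobox gene with a similar CpG count but a peak in all 4 libraries, chosen after its values were seen.
Irx2: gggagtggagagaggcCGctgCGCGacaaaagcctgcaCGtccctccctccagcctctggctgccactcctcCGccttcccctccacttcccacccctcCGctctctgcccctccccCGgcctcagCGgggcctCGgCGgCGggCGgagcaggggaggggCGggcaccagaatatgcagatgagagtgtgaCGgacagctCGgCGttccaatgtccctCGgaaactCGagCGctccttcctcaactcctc
Tcf15: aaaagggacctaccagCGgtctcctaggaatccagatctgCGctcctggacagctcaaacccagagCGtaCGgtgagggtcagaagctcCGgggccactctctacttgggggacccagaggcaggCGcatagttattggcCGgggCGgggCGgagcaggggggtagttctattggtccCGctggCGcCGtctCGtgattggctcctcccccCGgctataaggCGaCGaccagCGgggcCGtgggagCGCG
Nrg3: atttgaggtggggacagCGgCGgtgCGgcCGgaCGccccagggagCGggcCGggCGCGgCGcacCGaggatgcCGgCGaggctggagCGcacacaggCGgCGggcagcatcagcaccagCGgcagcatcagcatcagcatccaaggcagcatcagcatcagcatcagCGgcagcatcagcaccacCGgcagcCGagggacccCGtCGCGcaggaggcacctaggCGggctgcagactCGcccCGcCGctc
Adamts2: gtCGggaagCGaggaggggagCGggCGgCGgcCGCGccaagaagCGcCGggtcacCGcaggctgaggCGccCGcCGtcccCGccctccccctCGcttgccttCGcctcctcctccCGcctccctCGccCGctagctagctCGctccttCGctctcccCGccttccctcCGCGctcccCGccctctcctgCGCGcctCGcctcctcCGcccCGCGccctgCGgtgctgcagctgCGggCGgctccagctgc
Slc6a17: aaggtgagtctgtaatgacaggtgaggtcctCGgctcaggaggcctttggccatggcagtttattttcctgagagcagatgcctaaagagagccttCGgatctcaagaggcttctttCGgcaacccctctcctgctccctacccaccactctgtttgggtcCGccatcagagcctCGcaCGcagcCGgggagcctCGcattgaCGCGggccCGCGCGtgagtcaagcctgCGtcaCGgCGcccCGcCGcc
Cdh22: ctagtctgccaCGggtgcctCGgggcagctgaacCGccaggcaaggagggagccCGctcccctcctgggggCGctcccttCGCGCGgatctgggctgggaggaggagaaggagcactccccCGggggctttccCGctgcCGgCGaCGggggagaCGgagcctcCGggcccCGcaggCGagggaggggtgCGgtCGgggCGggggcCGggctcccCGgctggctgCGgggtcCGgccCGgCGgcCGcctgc
Peg12: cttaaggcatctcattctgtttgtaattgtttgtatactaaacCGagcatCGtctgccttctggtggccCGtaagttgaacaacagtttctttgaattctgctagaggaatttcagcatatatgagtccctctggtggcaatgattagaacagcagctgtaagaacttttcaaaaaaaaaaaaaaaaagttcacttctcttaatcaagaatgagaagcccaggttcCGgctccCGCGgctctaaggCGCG
Pou2f2: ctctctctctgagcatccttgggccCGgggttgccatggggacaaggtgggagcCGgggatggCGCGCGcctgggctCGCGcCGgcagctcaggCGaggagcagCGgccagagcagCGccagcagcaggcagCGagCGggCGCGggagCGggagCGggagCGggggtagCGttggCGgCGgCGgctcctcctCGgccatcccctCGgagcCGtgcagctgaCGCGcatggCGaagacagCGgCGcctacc
They lie at chr13:72628570-72628819 on the plus strand (Irx2), chr2:152143311-152143560 on the plus strand (Tcf15), chr14:39473089-39473338 on the minus strand (Nrg3), chr11:50601834-50602083 on the plus strand (Adamts2), chr3:107518019-107518268 on the minus strand (Slc6a17), chr2:165234854-165235103 on the minus strand (Cdh22), chr7:62464511-62464760 on the minus strand (Peg12) and chr7:25179727-25179976 on the minus strand (Pou2f2). None of these windows overlaps an annotated exon. The Adamts2 sequence holds 34 CpG in 250 bases and the Pou2f2 sequence 30, so a promoter without a peak can be as dense in CpG as an open one. The Peg12 sequence holds 8, though 67 lie within 500 bp of its 5′ end.

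Some libraries had marker calls that went against their label, or were shallow. The longer peak lists held 20647 to 70552 peaks, and the smallest unit of height put the tags at 109 M for replicate 1, 62.9 M for replicate 2, 91.5 M for replicate 3 and 24.3 M for replicate 4. Cd8a, which encodes the CD8 alpha chain, had a peak at its start in replicates 1 and 2 and none in replicates 3 and 4. Cd8b1, the beta chain, had a peak in all 4. Runx3, the last of the 3 CD8 lineage markers, also had a peak in all 4. All 7 T cell markers were called in replicates 1 and 2, 6 in replicate 3 and 2 in replicate 4. Of the 4 B cell markers, 2, 1, 3 and 2 were called in replicates 1 to 4, and Pax5 was called in all of them, with relative heights of 0.584, 0.648, 1.02 and 1.67 (a peak's height divided by the median height, in that library, of sites shared by all 4). Of the 3 myeloid markers, Spi1 and Lyz2 were called in replicates 1, 2 and 3 and none in replicate 4; Spi1 had relative heights of 0.349, 0.276 and 0.388. The helper T cell marker Zbtb7b was called in all 4 libraries, at 0.251, 0.358, 0.746 and 1.12, and Cd4 in none. Both NK cell markers, the erythroid marker Hbb-bs and the hepatocyte marker Alb had no peak in any library. The part of these differences in the values below was not tested. Results are therefore also given from replicates 1 and 2 alone where they move.

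A member lacks a peak in every library, so each library alone must leave at least as many CpG-rich genes without one. The number was 800 in replicate 1, 820 in replicate 2, 877 in replicate 3 and 1539 in replicate 4. Replicate 4, the shallow library, stands far above the other 3. Of the 7206 genes, 5631 had a peak in all 4 libraries, 592 in 3, 154 in 2, 180 in 1 and 649 in none. Replicates 1 and 2 together left 707 without a peak. Genes called in a single library lie next to the members on this scale: 65 were called in replicate 1 alone, with a median relative height of 0.080, against 1.70 for genes called in all 4 libraries. Replicate 2 alone called 60, with a median of 0.0657 against 1.67, replicate 3 alone 43 (0.144 against 1.83) and replicate 4 alone 12 (0.307 against 1.84).

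The CpG count, which the choice of members used, separated promoters with and without peaks only at its low end. Among CpG-poor coding genes (under 60 CpG), 53% had no peak in any library, 7149 of 13495. With 0 to 9 CpG the share was 87.7%, with 30 to 39 it was 29.9%, and with 50 to 59 it was 12.1%. Above the minimum it stayed between 7.34% (100 to 109 CpG) and 13.1% (110 to 119 CpG), and it was 8.02% of the 262 genes with 130 CpG or more. Members had a median of 79 CpG (quartiles 68 and 97), and CpG-rich genes with a peak in all 4 libraries had a median of 80 (quartiles 69 and 96). The minimum fell in a flat stretch. At exactly 60 CpG, 21 of 218 genes had no peak, among them Adgrl2, a latrophilin receptor, Atoh1, a factor of hair cells and cerebellar granule cells, C130060K24Rik and Cadps, which primes secretory vesicles. At 59 CpG, just outside, 19 of 200 had none, among them the carbonic anhydrase gene Car4, the claudin gene Cldn3, the ephrin gene Efnb3 and Elmod1. The distance limit was similarly thin: 5 members had their nearest peak of any library between 1000 and 1100 bp from a start, and 9 of the 6557 CpG-rich genes with a peak had their nearest at over 900 bp.

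The members with the densest islands had 143 to 157 CpG within 500 bp of the 5′ end. Gpr27, an orphan receptor of the brain, had 157 (chromosome 6, 99692679, plus strand). Next came Cabp7, a neuronal calcium-binding protein, with 153 CpG, Zcchc14 with 152, Shisa6, an auxiliary subunit of AMPA receptors, with 150, and Tmem200b with 150. Reln, the secreted guide of migrating cortical neurons, had 149, the microtubule kinase gene Mark1 148, Paqr9 148, the ankyrin gene Ank1 146 and the netrin receptor gene Neo1 143. Except for Neo1, whose window was covered to 0.999% in replicate 2, none of these 10 windows held a cut-rate interval in any library. Among all members, 92.3% of windows held none in any library.

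The islands of the members reached farther into the gene than those of open promoters. From 1 to 2 kb downstream of the 5′ end, members held a median of 18 CpG and CpG-rich genes with a peak in all 4 libraries 12. Upstream over the same distance the medians were 11 and 10. The downstream median was higher for members in each of 7 bins of equal central CpG count between 60 and 129, by 17 against 12 at 60 to 69 CpG, 14 against 13 at 90 to 99 and 21 against 14 at 110 to 119. Genes with a peak in 1 to 3 libraries followed the members: between 1 and 1.25 kb downstream the mean was 8.03 CpG per 250 bp in members, 7.81 in genes with a peak in 1 to 3 libraries and 5.40 in genes with a peak in all 4. The median GC content of the central window was 64.9% in members and 62.9% in open promoters, and the ratio of observed to expected CpG was 0.775 against 0.834. Members were also longer genes, with a median of 43.9 kb (quartiles 10.8 and 139.9) against 28.3 kb (quartiles 12.2 and 60.8). They had a median of 3 annotated starts against 5, and 28% of members against 8.79% of open genes had a single start. The number of starts is not independent of the choice of members, since each further start is a further place at which a peak would remove a gene.

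**Figure D1:**
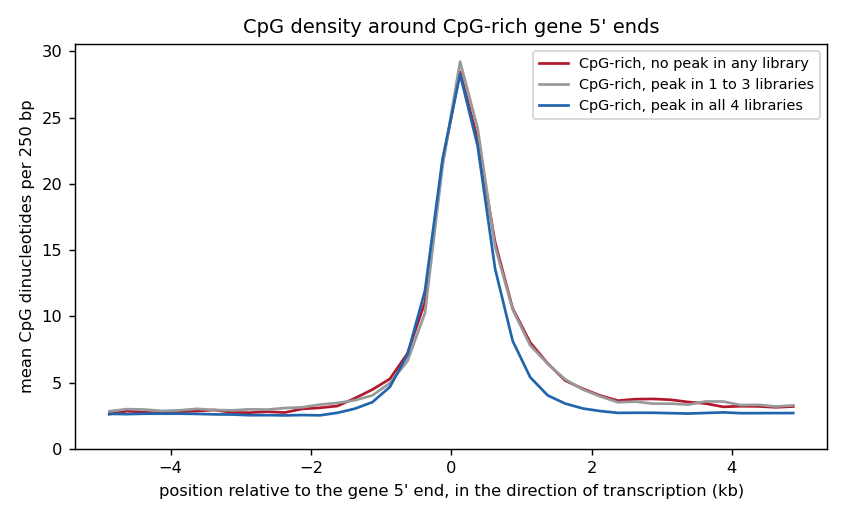
Mean number of CpG dinucleotides per 250 bp (y axis) by position from the gene 5′ end in the direction of transcription (x axis, kb) for CpG-rich genes with no peak (red, 649 genes), a peak in 1 to 3 libraries (grey, 926) and a peak in all 4 libraries (blue, 5631). The curves coincide at the 5′ end, which the CpG minimum fixes, and part downstream, where the blue curve falls first.

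In the pooled classes of developmental regulators, secreted signals and neuronal genes, the share without a peak stood above the 9.01% of all CpG-rich coding genes. Classes were matched by gene symbol, 29 in all, and together they held 237 of the 649 members. They were chosen with earlier results of these data known, so the kinds of genes among these 237 follow from the list. In 8 transcription factor classes 88 of 203 CpG-rich genes (43.3%) had no peak, in 4 classes of secreted signals 23 of 54 (42.6%), and in 7 neural and guidance classes 70 of 184 (38.0%). In the 3 housekeeping classes 0 of 130 did: all 51 CpG-rich cytosolic ribosomal protein genes and all 17 proteasome genes had a peak in all 4 libraries, and of 62 mitochondrial genes 60 did. Of the 8 CpG-rich T cell genes none was a member, but so few genes cannot be told apart from the 9.01%. Outside every class, 412 of 6333 genes (6.51%) had no peak. These are counts beside a background, and no test of the classes was made.

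**Figure D2:**
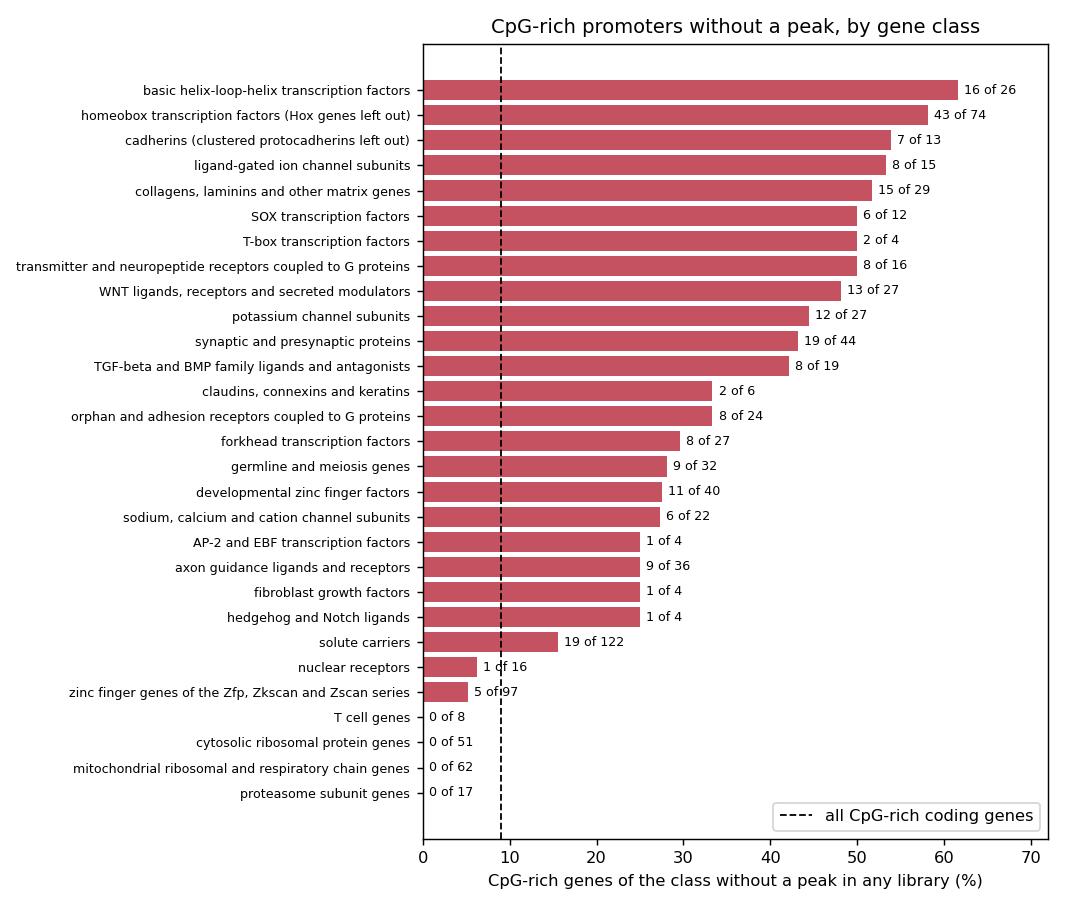
Share of the CpG-rich genes of each class without a peak in any library (x axis, %), with the number of genes beside each bar; the dashed line is the 9.01% of all CpG-rich coding genes. Bars run from 61.5% for basic helix-loop-helix factors to 0 for the ribosomal, mitochondrial, proteasome and T cell classes.

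Homeobox genes encode the DNA-binding factors that lay out body axes and cell identities, and they gave the most members: 43 of 74 CpG-rich genes (58.1%). Irx2 (124 CpG), Six2 (119 CpG), a factor of kidney progenitors, and Hmx1 (118 CpG), a factor of sensory neurons and the outer ear, had the highest counts. None of the 43 had a cut-rate interval in its window in any library. The same held for 92.3% of all members, and the difference between these shares was not tested. Per library, 49, 48, 53 and 66 of the 74 lacked a peak in replicates 1 to 4, and 60.8% lacked one in both replicates 1 and 2. The number was thus highest in replicate 4, the shallow library. A member must lack a peak in every library, so a library with few peaks can change the number of members little. Without replicate 4 it was 44. In contrast, 6 of the 74 had a peak in all 4 libraries, of which Pou2f1, Pou2f2 and Onecut3 are described here, chosen after their values were seen. Pou2f1, the widely expressed octamer factor, reached 2.42, 3.06, 2.87 and 2.90 relative to the median shared site in replicates 1 to 4, and Pou2f2 had 1.11, 1.20, 0.945 and 1.40. Onecut3 was low in all, with 0.298, 0.240, 0.296 and 0.579. The heights of these 3 genes spanned a wide range, with Pou2f1 above the typical shared site in every library and Pou2f2 in 3 of 4.

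Basic helix-loop-helix factors, which drive neurogenesis and mesoderm formation, had the highest share, 16 of 26 (61.5%), led by Tcf15 (117 CpG), Twist1 (114 CpG), a regulator of mesenchyme, and Sim2 (101 CpG), a midline factor. The 3 with a peak in all 4 libraries were Hes1, Hey1 and Hey2, targets of Notch signalling; Hey2 had relative heights of 1.56, 1.29, 1.69 and 1.70, and Hes1 had 0.522, 0.678, 0.777 and 1.02. Of 12 CpG-rich SOX genes 6 were members, with Sox11 (100 CpG), Sox2 (97 CpG), a factor of pluripotent and neural stem cells, and Sox1 (84 CpG) at the top. Forkhead genes were split more evenly: 8 of 27 (29.6%) were members, led by Foxf1 (112 CpG), Foxf2 (104 CpG) and Foxc1 (99 CpG), factors of mesenchyme, while 12 had a peak in all 4 libraries. Developmental zinc finger genes had 11 members of 40 (27.5%), among them Insm1 (126 CpG) and Insm2 (123 CpG), factors of neuroendocrine cells, and Klf15 (116 CpG). Of 16 CpG-rich nuclear receptor genes 1 was a member (6.25%), near the 9.01% of all CpG-rich genes for so few genes. The 97 CpG-rich zinc finger genes of the Zfp, Zkscan and Zscan series had 5 members (5.15%): Zfp618 (132 CpG), Zfp541 (94 CpG) and Zfp423 (91 CpG) led them.

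Secreted signals and their receptors came next. WNT ligands, receptors and modulators, which set cell fate and polarity, had 13 members of 27 (48.1%), with Wnt4 (137 CpG), Wnt9a (131 CpG) and Sfrp1 (103 CpG), a decoy receptor of WNT, at the top. The ligands and antagonists of the TGF-beta and BMP family had 8 of 19 (42.1%), led by Bmp2 (100 CpG), Bmp8b (94 CpG) and Chrd (91 CpG), which encodes the BMP antagonist chordin. Axon guidance genes had 9 of 36 (25%), led by the ephrin receptor gene Epha8 (109 CpG), the ephrin gene Efna2 (108 CpG) and the semaphorin receptor gene Plxna4 (104 CpG).

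Each family of genes of excitable cells held members. Potassium channels had 12 members of 27 (44.4%), led by Kcnd3 (122 CpG), Kcnj12 (118 CpG) and Kcnc4 (101 CpG). Sodium, calcium and cation channels had 6 of 22 (27.3%): the pacemaker channel gene Hcn4 (123 CpG) and the calcium channel gene Cacna2d1 (121 CpG) led them. Ligand-gated channels had 8 of 15 (53.3%), with the glutamate receptor genes Grid1 (131 CpG) and Grik3 (125 CpG) and the glycine receptor gene Glrb (80 CpG). Transmitter and neuropeptide receptors had 8 of 16 (50%), led by the serotonin receptor gene Htr7 (111 CpG), Adra1d (105 CpG) and the opioid receptor gene Oprd1 (96 CpG). Synaptic genes had 19 of 44 (43.2%), led by Nrg3 (131 CpG), Nptx2 (123 CpG) and Cbln1 (118 CpG), the last an organizer of cerebellar synapses. Orphan and adhesion receptors had 8 of 24 (33.3%), with Adgrb1 (84 CpG) and Gpr63 (83 CpG) after Gpr27.

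Among genes of tissue structure, cadherins had 7 members of 13 (53.8%), led by Cdh2 (109 CpG), which encodes N-cadherin, Dchs1 (107 CpG) and Cdh4 (105 CpG). Collagens, laminins and other matrix genes had 15 of 29 (51.7%), led by Adamts2 (110 CpG), Adamtsl3 (99 CpG) and Col4a1 (97 CpG), a chain of basement membrane collagen. Solute carriers, many of them widely expressed, had a share nearer the background, 19 of 122 (15.6%), among them the vesicular acetylcholine transporter gene Slc18a3 (89 CpG), Slc6a17 (86 CpG) and the GABA transporter gene Slc6a11 (85 CpG). Germline and meiosis genes had 9 of 32 (28.1%), led by Tdrd6 (84 CpG) and Ddx4 (73 CpG), both of the germ granule, and D1Pas1 (66 CpG).

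Some members lie in sequence with few or no 36-base windows that occur only once. Taking 36-base windows every 25 bases across the 1001-bp window, 563 members (86.7%) had only windows that occur once on chromosomes 1 to 19, against 84.6% of CpG-rich genes with a peak in all 4 libraries. In 31 members fewer than 50% of the windows were unique, and in 16 none was; among genes with a peak in all 4 libraries these numbers were 18 and 0. The 31 held 5 histone genes and 21 genes with clone-style symbols. They also held Fam177a, Srp54b, which encodes a subunit of the signal recognition particle, and Slc25a37, the mitochondrial iron importer, each with 0% unique windows, and Entpd4 and its copy Entpd4b, also with 0%; these 5 were named after their values were seen. The sources used here give neither the read length nor the treatment of multiply mapped reads, and the part of repeated sequence in these absent peaks was not tested. Without the 31, 618 members remained (8.67% of the CpG-rich genes that pass the same limit), with all 43 homeobox genes and 236 of the 237 members in classes.

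Beyond CpG itself, members and open promoters had unequal shares of some short motifs and level shares of others. Matches were counted on both strands in 300-base windows, from 250 bases before the gene 5′ end to the first 50 bases of the gene, for 11 letter strings, none of which contains another. The motif of SP and KLF factors, GGGCGG, was level: 76.9% of members, 77.5% of CpG-rich promoters with a peak in all 4 libraries and 43.7% of all coding promoters held it. The core bound by ETS factors, CCGGAA, was in 9.86% of members and 32.4% of open CpG-rich promoters, with 17.9% of all coding promoters. The YY1 string AANATGGC was in 1.39% and 9.39% (6.16% of all), the NRF1 string GCATGCGC in 2.62% and 7.16% (3.45% of all) and the cyclic AMP response element TGACGTCA in 0.616% and 4.62% (2.43% of all). All of these are bound at the starts of widely expressed genes. The NFY string CCAAT was in 28.2% and 37.6% (38.6% of all).

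The motif differences were not limited to weaker islands. At 60 to 79 CpG, CCGGAA was in 10.8% of 332 members and 35.5% of 2720 open promoters, and at 80 to 157 CpG in 8.83% of 317 and 29.6% of 2895. Promoters with a peak in 1 to 3 libraries lay with the members rather than with open promoters for CCGGAA (13.6%), GCATGCGC (2.59%) and CCAAT (28%), and between them for AANATGGC (4.75%) and TGACGTCA (2.16%). The E-box CACGTG was in 10.8% of members and 11.9% of open promoters (7.82% of all), the E2F string TTCCCGC in 8.47% and 11.3% (5.82% of all), and the palindrome CTCGCGAG in 1.39% and 3.25% (1.22% of all). TATAAA was in 4.93% and 4.51%, and in 12.7% of all coding promoters. TTCAGCACC, the left part of the site of the neuronal repressor REST, was in 5 members (0.770%) and 17 open promoters (0.302%), and in 0.394% of all coding promoters. A match describes the letters of the reference and not binding, and a window without one says nothing about the factor.

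**Figure D3:**
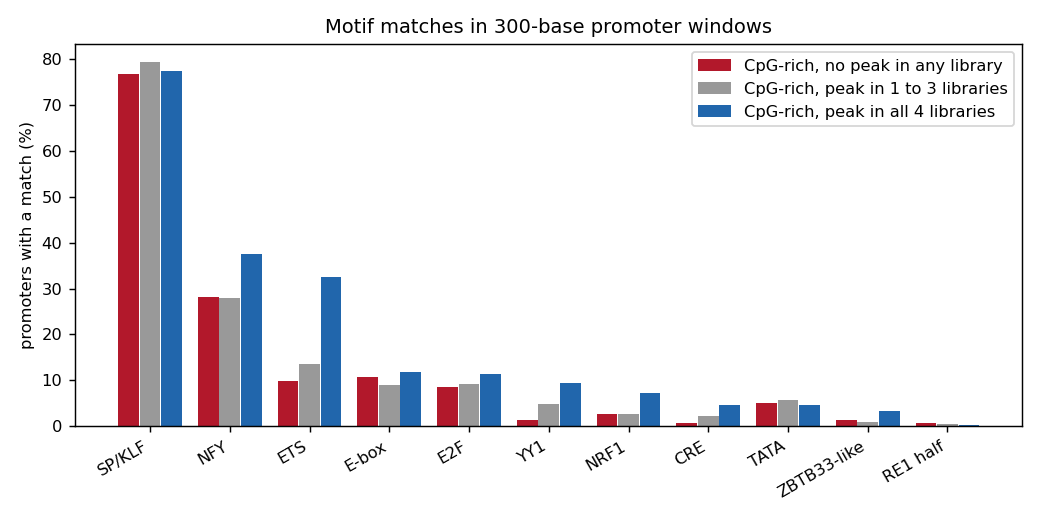
Share of promoters with at least 1 match in the 300-base window (y axis, %) for each motif family (x axis), for CpG-rich promoters with no peak (red), a peak in 1 to 3 libraries (grey) and a peak in all 4 libraries (blue). Red and blue are level for SP/KLF, and blue is higher for ETS, NFY, YY1, NRF1 and CRE.

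The deposited cut-rate intervals, which the authors give with a value below 0.05 read as a false discovery rate, offer a finer look at these windows than the peaks, though they come from the same alignments. Of the 649 members, 599 had no interval within 500 bp of the 5′ end in any library, 44 had one in 1 library, 6 in 2 and 0 in 3 or 4. The 50 members with an interval were 7.70%, against 89.8% of all CpG-rich coding genes, and this gap follows from the choice of members. Per library, 30, 13, 10 and 3 members held an interval in replicates 1 to 4. The mean share of the window inside intervals was 0.0754% in replicate 1, 0.0565% in replicate 2, 0.0262% in replicate 3 and 0.00431% in replicate 4. In CpG-rich genes with a peak in all 4 libraries the same shares were 89.4%, 85.0%, 87.8% and 58.6%. The lowest value at any member was 0.0163, in replicate 1, so no member held an interval below 0.01. No footprint lay within 1 kb of any start of a member in any library. Footprints went with peaks, so this adds nothing independent of the choice of members. Of the 7149 CpG-poor genes without a peak, 2, 0, 1 and 0 had a footprint in replicates 1 to 4. Of CpG-rich genes with a peak in all 4 libraries, 99.9% had one in replicates 1, 2 and 3 and 88.15% in replicate 4.

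CpG-poor promoters without a peak, chosen by the same absence of a peak, held still less. Their windows were covered to 0.0110%, 0.00579%, 0.00904% and 0.000573% in replicates 1 to 4, and 112 of 7149 (1.57%) had an interval in at least 1 library, against 50 of 649 members. The difference between CpG-rich and CpG-poor promoters without a peak was 0.0645, 0.0507, 0.0171 and 0.00374 percentage points, higher at CpG-rich promoters in 4 of 4 libraries. Its mean was 0.0340 points ± 0.0283 (SD, n = 4), and an exact two-sided sign-flip permutation test over the libraries gave p = 0.125, the smallest that 4 libraries allow. Both groups were chosen for lacking a peak in these same alignments, so the test covers only intervals that the peak rule leaves over. It cannot separate CpG density from that rule, and no conclusion is drawn from it. The agreement between libraries depended on the distance limit: with no peak within 0.5 kb in place of 1 kb the differences were 0.0450, 0.0395, -0.0065 and -0.000383 points, higher at CpG-rich promoters in 2 of 4 libraries (mean 0.0194, p = 0.5 by the same exact permutation test). With the window widened to 1 kb on each side the mean was 0.0164 points, and with the shorter peak lists 1.13 points, higher in 4 of 4 libraries under both. In the kilobase before the 5′ end alone, CpG-rich promoters were covered to 0.0445%, 0.0259%, 0.00555% and 0% and CpG-poor ones to 0.0165%, 0.0143%, 0.0129% and 9.79e-05%, so the order turned in replicates 3 and 4. The size followed the library and not only the promoters: it was largest in replicates 1 and 2 and smallest in the shallow replicate 4. Replicates 1 and 2 alone gave 0.0654 points. With intervals limited to values below 0.01 the difference was 0 in every library, since neither kind of promoter then held any. Beside the window, at 5 to 6 kb on either side, intervals covered 0.636%, 0.579%, 0.496% and 0.126% of the sequence around members and 1.08%, 0.996%, 0.859% and 0.269% around CpG-poor promoters without a peak, the opposite order in 4 of 4 libraries. There the choice of promoters excludes a peak only if a further start of the gene lies near.

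**Figure D4:**
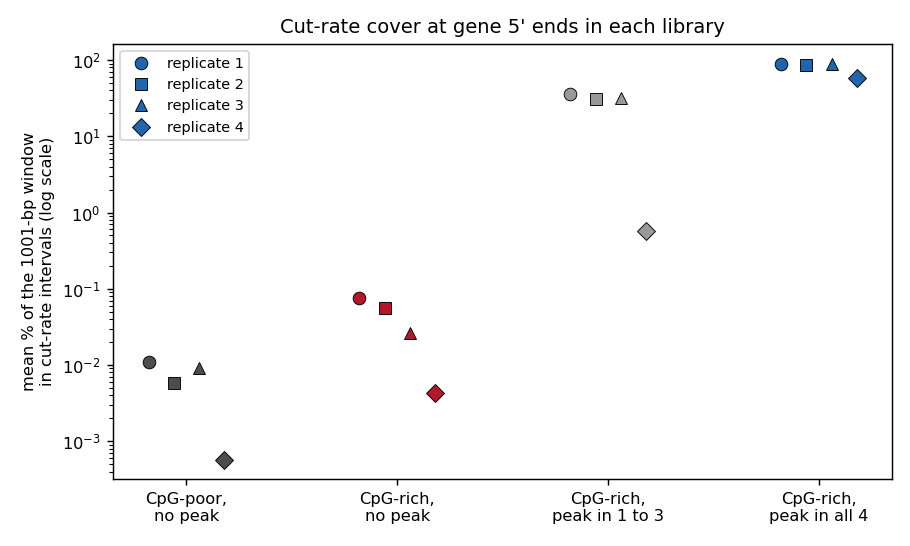
Mean share of the 1001-bp window around the gene 5′ end inside cut-rate intervals (y axis, %, log scale) for each library (symbols) in 4 groups of coding promoters (x axis). In every library the CpG-rich promoters without a peak (red) sit above the CpG-poor ones (dark grey) and by more than 3 powers of 10 below the CpG-rich promoters with a peak in all 4 libraries (blue).

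The few members with intervals were scattered over gene types. Cdh22 had the highest mean cover, with 4.50% of its window in replicate 1, 2.80% in replicate 3 and 0 in the others; its nearest consensus site lies 1.14 kb from a start. Peg12 had 2.60% in replicate 1 and 3.20% in replicate 3, with its nearest consensus site 1288 kb away. Lama5, a laminin chain, had 4.50% in replicate 2 and 0.200% in replicate 4. The other 7 of the top 10 had an interval in a single library: Rnf152 in replicate 3 (5.49%), Zfp618 (4.90%), the disulfide isomerase gene Pdia5 (3.90%) and the VEGF receptor gene Kdr (3.50%) in replicate 2, and the synaptic scaffold gene Grip1 (3.90%), Bmp2 (3.80%) and the lipid kinase gene Dgki (3.70%) in replicate 1. Besides Cdh22, Peg12 and Lama5, the members with an interval in 2 libraries were Cnih3, Ccdc149 and Ptprn2, named after their values were seen. In replicates 1 and 2 they were covered to 0.200% and 2.80% (Cnih3), 0.0999% and 1.30% (Ccdc149) and 0.5% and 2.5% (Ptprn2). Intervals at members were thus short and rarely repeated between libraries. Members were chosen for lacking a peak in these same alignments, so this is no finding about them. The highest cover of any member was 4.50%, 4.90%, 5.49% and 2.10% in replicates 1 to 4. In CpG-poor genes without a peak it was 4.50%, 4.30%, 4.30% and 2.00%.

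Accessible sites near the members were sparse, but far from absent. A consensus site is a merged peak called in at least 3 of 4 libraries, and the distance is that from any annotated start to the nearest consensus site over 1 kb away, so that a gene's own promoter site is left out in every group. The median distance was 33.4 kb for members (quartiles 9.07 and 123.2), 8.21 kb for CpG-rich genes with a peak in all 4 libraries (quartiles 3.36 and 18.4) and 49.8 kb for CpG-poor genes without a peak. These groups had medians of 3, 5 and 2 annotated starts. A gene with more starts has more places from which a site can be near. The part of this in the distances and shares given here was not tested. A site lay 1 to 25 kb from a start of 287 members (44.2%), against 65.5% of all coding genes and 83.0% of CpG-rich genes with a peak in all 4 libraries. With the sites of each library alone, the median distance was 16.6, 16.4, 26.9 and 73.7 kb for members and 4.81, 4.80, 7.38 and 19.4 kb for open genes in replicates 1 to 4, so members lay farther in 4 of 4 libraries. The share of members within 25 kb was 58.2%, 57.3%, 48.2% and 26.2%, against 91.2%, 92.0%, 85.3% and 58.7% of open genes. The distances follow the length of each library's peak list, and the order of the groups was the same in each. The consensus distance rests on replicates 1, 2 and 3: without any of these 3, when the shallow replicate 4 must also hold every site, it was 79.8, 77.9 and 76.4 kb, and without replicate 4 it was 34 kb. Sites and members taken from replicates 1 and 2 alone gave 21.2 kb, with 51.9% of members within 25 kb.

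**Figure D5:**
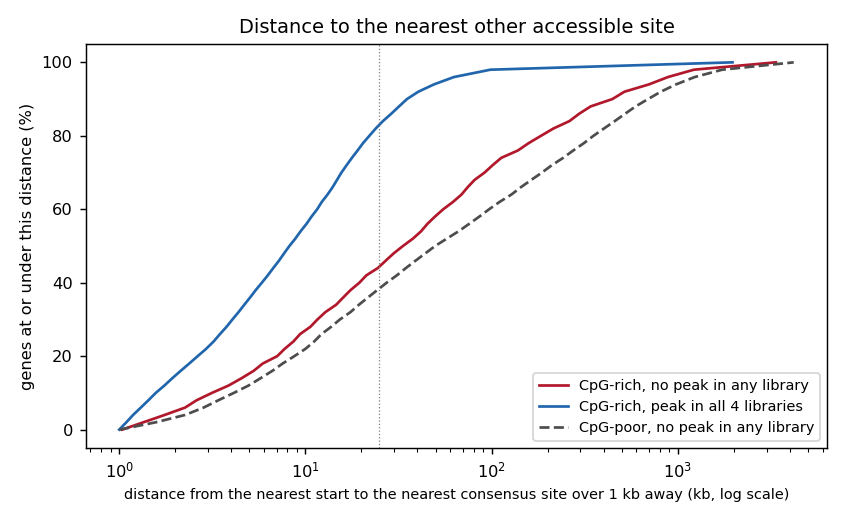
Percentage of genes (y axis) whose nearest consensus site over 1 kb from a start lies at or under a given distance (x axis, kb, log scale); the dotted line marks 25 kb. Members (red) run between CpG-rich genes with a peak in all 4 libraries (blue, median 8.21 kb) and CpG-poor genes without a peak (dashed, median 49.8 kb).

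The nearest site of a member was mostly distal. It lay within 1 kb of the start of another coding gene for 138 members (21.3%), of a non-coding gene for 17, inside the member's own gene body for 125 (19.3%) and elsewhere for 369 (56.9%). In CpG-rich genes with a peak in all 4 libraries these shares were 29.1%, 4.48%, 27.5% and 38.9%. A consensus site lay inside the gene body of 160 members (24.7%), of 12.3% of CpG-poor genes without a peak and of 98.45% of open genes. In open genes a site at their own start can count. The locus, the gene body with 25 kb on each side, held a median of 1 consensus site for members and 5 for open genes, which count their own promoter site. It held a median of 0 for CpG-poor genes without a peak. No site lay at the locus of 295 members (45.5%) and of 56.75% of these CpG-poor genes. The CpG-poor genes had a median length of 8.53 kb, shorter than the members, and the part of gene length was not tested.

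The nearest and farthest sites show the range. Oxtr, the oxytocin receptor gene, had a consensus site 1.04 kb from a start (chr6:112490981-112491180), Hhipl1 1.09 kb, the growth factor gene Tgfa 1.10 kb, Cdh22 1.14 kb and Asic1, an acid-sensing channel gene, 1.15 kb, in the last case a site called in all 4 libraries. At the other end Cdh8, a neuronal cadherin gene, lay 3364 kb from its nearest consensus site, Gm43517 1963 kb, Epha5 1648 kb, Naaladl2 1630 kb and Cdh2 1530 kb. Altogether 22 members had none within 1 Mb. Pakap, an anchor gene of protein kinase A, had the most sites at its locus, 18, of which 16 lay inside its gene body; Hmcn2 had 15, Zfp541 10, 1700067K01Rik 9, the synaptic scaffold gene Dlgap1 9, all inside its body, and Clmp 8. An island without a peak and a locus with many accessible sites thus occurred together at these genes.

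Members also lay apart from other genes. The nearest 5′ end of another coding gene was a median of 67.8 kb away along the order of genes, against 19.6 kb for CpG-rich genes with a peak in all 4 libraries. That neighbour had no peak in any library for 286 members (44.1%) and for 16.3% of open genes, and it had a peak in all 4 libraries for 270 members (41.6%) and for 71.4% of open genes. Over all coding genes, Hox and Pcdh genes left out, 9.01% of CpG-rich and 53% of CpG-poor ones had no peak in any library. Another member was the neighbour of 59 members (9.09%), and a member was the neighbour of 93 open genes (1.65%). The members are 649 of 20807 coding genes. The part of these overall shares in the neighbour counts, and in the runs below, was not tested. Directly adjacent members formed 54 runs with 110 members, none longer than 3. The longest were 2 runs of 3 members. Irx1, Irx2 and Irx4, of the Iroquois homeobox cluster, lay over 1297 kb of chromosome 13 (5′ ends from 71963723 to 73260479). Fam177a, Srp54b and 1700047I17Rik2 lay over 75.1 kb of chromosome 12, and none of the 36-base windows taken there was unique. The third by the alphabetical order of ties, 5730507C01Rik and Gm21863 on chromosome 12, had 79.5% and 43.6% unique windows. In the Iroquois run the distances to the nearest consensus site were 1315 kb for Irx1, 678 kb for Irx2 and 50.1 kb for Irx4. The nearest site of Irx2 and Irx4 was the same, chr13:73310641-73310829 beyond Irx4, and that of Irx1 lay on the far side, at chr13:70643781-70643980.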

How the data were processed

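Per the labels, DNase-seq was made from 4 libraries of a single group, on mouse build mm10 (GRCm38). The authors deposited for each library a longer and a shorter peak list with a signal per peak, the height scaled to library depth, 1 list per library and not pooled. They also deposited footprints, with a p-value or q-value of 0.01 throughout, and cut-rate intervals with a p-value or q-value below 0.05, read as false discovery rates. No aligner, caller or threshold is given in the sources used here.

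CpG counts, motifs and sequences were read from the GRCm38 reference, and genes and starts from GENCODE mouse release 21. Peaks overlapping by at least 1 bp were merged, and a consensus site needed a peak in 3 or more of the 4 libraries. Depth is known only as the 24.3 to 109 M tags implied by height steps, so single sites carry no counting interval. The only test was an exact two-sided sign-flip permutation over libraries.

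Members, classes and lists were chosen with earlier results of these data known. Named genes were the 10 members with the highest CpG count, the 10 with the highest mean cut-rate cover, the 3 with the highest CpG count of each class with 5 or more members, the 5 nearest to and 5 farthest from a consensus site, the 6 with the most sites at the locus, the 3 longest runs, 4 genes on each side of the CpG minimum and the markers; others are said to have been named after their values were seen. A gene that this rule names is not reported here. Printed sequences keep to the 250 bases before the 5′ end, leaving out the first bases of the transcript that had also been planned, and pass over genes with an exon there or on chromosome 18. Alternatives were the shorter lists, windows of 0.5 and 2.5 kb, the 5′ end only, CpG minimums of 50 and 80, values below 0.01 and 0.001, 1 kb on each side, sites in 2 or 4 libraries, 10 and 100 kb, and leaving out each replicate. Replicates 1 and 2 only, and members with at least 50% unique 36-base windows, were added after seeing the data. Interval, distance and permutation steps were tested on simulated data. Python 3.11.15, numpy 2.4.6 and pandas 2.3.3 were used.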

Additional observations from a re-analysis of the deposited data

Results flagged for a closer look

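The number of CpG-rich coding promoters without a peak in replicate 4, 1539, stood apart from 800, 820 and 877 in replicates 1 to 3, by Dixon's criterion for 4 values. It was 1 of 7 quantities compared over the 4 libraries, and chance flags about 1 in 20 such groups. Replicate 4 also had the fewest tags (24.3 M) and the shortest peak list (20647 peaks), and their part in the count was not tested. Without replicate 4 the number of members was 661.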

How the results depend on the processing

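The number of members stayed within 1.5 times of 649 in 11 of 12 alternatives and fell to 317 with a CpG minimum of 80, which also left 23 homeobox members in place of 43. The mean cut-rate difference stayed above 0 in 13 of 15 alternatives, but with no peak within 0.5 kb it was 0.0194 points (p = 0.5 by the exact sign-flip permutation) and positive in 2 of 4 libraries only; it was 0.0164 points with 1 kb on each side and 0 with values below 0.01 (p = 1 by the exact sign-flip permutation) and below 0.001, where no window held an interval; with the shorter peak lists it was 1.13 points. The members with an interval in every library used numbered 3, in place of 0, with the shorter lists and also with replicates 1 and 2 only. Leaving out each replicate gave 661 to 714 members, 44 to 45 homeobox members, differences of 0.0251 to 0.0473 points, median distances of 34 to 79.8 kb and 25.6% to 43.9% of members within 25 kb of a consensus site. With sites called in all 4 libraries these last values were 79.5 kb and 25.1%, and 26.8% and 71.6% lay within 10 and 100 kb. Where replicate 4 must hold every site, its 24.3 M tags limit both. The sign-flip test compares promoters within each library; there are no further groups whose replicates could be paired.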
